A study of Mus musculus with 6 samples.

Results

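The 10 integrin subunit genes described here comprised 5 genes of alpha subunits (Itga3, Itga5, Itga6, Itga7 and Itgav) and 5 genes of beta subunits (Itgb1, Itgb3, Itgb4, Itgb5 and Itgb7). They were chosen by name from the 42450 genes of the total RNA table, which lists 27 integrin subunit genes in all. All 10 passed the filter on low counts, as did 13 of the other 17 subunit genes and 18905 genes over the whole table. WT cells were E14tg2a.4 mouse embryonic stem cells (mESC) of male origin. Srrm2+/- cells were the gene-trap line CG0630, made in E14tg2a.4 cells, with a cassette in exon 1 of one allele of Srrm2, a splicing factor of nuclear speckles. Both were grown on gelatine with LIF, the cytokine that holds mESC in self-renewal, and then in serum-free medium with LIF before collection. Per the study's methods, both lines were seeded at the same density and grown for the same time for total RNA. The sample labels name other times in serum-free medium than the methods do, so no time is given here. Each group had 3 replicates. The Srrm2+/- line is a single clone, and its cells were at lower passage than the parental WT cells, so genotype, clone and passage cannot be told apart.

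Integrins are receptors of the cell surface that join the extracellular matrix to the actin cytoskeleton. Each is a dimer of an alpha and a beta subunit. The alpha subunit largely sets which ligand is bound, and the tail of the beta subunit recruits talin and kindlin inside the cell. The Itgb1 protein pairs with many alpha subunits, among them the laminin receptors of Itga3, Itga6 and Itga7 and the fibronectin receptor of Itga5. Itgav joins several beta subunits in receptors for ligands with an RGD motif. Itgb4 joins Itga6 in hemidesmosomes, and Itgb7 joins Itga4 or Itgae, pairs best known from lymphocytes. Mouse ES cells attach to laminin and to gelatine-adsorbed matrix largely through dimers of Itgb1.

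The libraries held between 54151433 and 69933421 estimated counts. Srrm2, which checks the labels, averaged 95.7 ± 3.94 CPM in WT against 59.3 ± 3.02 CPM in Srrm2+/- cells (CPM are counts scaled to the normalised library size, with SD, n = 3 each). Of 7 markers of mouse ES cells all were detected in both groups, and Pou5f1 averaged 847 CPM in WT against 824 CPM in Srrm2+/- cells. Their summed level was 3926 to 4135 CPM in WT and 3347 to 3474 CPM in Srrm2+/- libraries, with 1 higher and 5 lower. The summed level of 8 fibroblast markers was 3.47 to 3.68 CPM in WT and 6.99 to 10.9 CPM in Srrm2+/- libraries, with 4 of 6 tested markers higher and Dcn at 0 in each WT library. The 7 primitive endoderm markers summed to 2.39 to 2.70 CPM in WT and 2.56 to 3.64 CPM in Srrm2+/-, with 1 of 5 tested higher. Without Gata4, the highest of them, the other 6 summed to 1.42 to 1.66 CPM in WT and 1.73 to 2.64 CPM in Srrm2+/-. The 7 trophoblast markers summed to 52.7 to 53.6 and 33.1 to 36.1 CPM, with 1 of 5 tested higher, 1 lower and Cdx2 at 0 in each WT library. Most of that sum was Tfap2c, and the other 6 summed to 2.53 to 2.63 CPM in WT and 3.12 to 3.58 CPM in Srrm2+/-. The 7 mesoderm and endothelium markers summed to 94.1 to 98.4 and 71.9 to 77.9 CPM, with 2 of 5 tested higher, 2 lower and Cdh5 at 0 in each WT library. Most of that sum was Pecam1, and the other 6 summed to 5.97 to 7.73 CPM in WT and 8.08 to 9.19 CPM in Srrm2+/-. T and Kdr were the 2 called higher, and at least 1 of the 2 called lower was also among these 6. The 4 epidermal markers summed to 0.190 to 0.373 and 0.340 to 0.348 CPM, and the single marker tested was not called. Calls of markers follow the rule given below, by which 13.6% of all tested genes were higher and 11.7% lower. The part of these markers in the results below was not tested. In such bulk libraries, fewer cells of a type and less RNA per cell cannot be told apart.

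The 250 bases before the RefSeq start of 4 changed genes are shown for their base composition and motifs. Itga3, Itgb1 and Itgb5 were higher in Srrm2+/- cells and Itgb7 was lower. The sequences are those of RefSeq on GRCm38.p6, and each reads 5′ to 3′ on the strand of its gene. The windows lie at chr11:95076715-95076964 (minus strand, Itga3), chr8:128685404-128685653 (plus strand, Itgb1), chr16:33829415-33829664 (plus strand, Itgb5) and chr15:102231936-102232185 (minus strand, Itgb7). GENCODE places the starts of Itga3 and Itgb7 further upstream than RefSeq does, so that the last 87 bases of the Itga3 window and the last 9 bases of the Itgb7 window lie inside the gene as located below. Capitals mark the GC box, the letters GGGCGG on either strand.
Itga3: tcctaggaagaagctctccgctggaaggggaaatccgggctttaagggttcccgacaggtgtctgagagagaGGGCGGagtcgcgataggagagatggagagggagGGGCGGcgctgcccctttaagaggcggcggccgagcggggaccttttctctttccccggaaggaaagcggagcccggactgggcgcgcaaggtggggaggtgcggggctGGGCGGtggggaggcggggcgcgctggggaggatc
Itgb1: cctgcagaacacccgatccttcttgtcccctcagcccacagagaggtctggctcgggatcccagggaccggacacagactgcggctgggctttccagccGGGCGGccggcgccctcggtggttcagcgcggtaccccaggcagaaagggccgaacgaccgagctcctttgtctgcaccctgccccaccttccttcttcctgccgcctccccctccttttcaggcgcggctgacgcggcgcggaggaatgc
Itgb5: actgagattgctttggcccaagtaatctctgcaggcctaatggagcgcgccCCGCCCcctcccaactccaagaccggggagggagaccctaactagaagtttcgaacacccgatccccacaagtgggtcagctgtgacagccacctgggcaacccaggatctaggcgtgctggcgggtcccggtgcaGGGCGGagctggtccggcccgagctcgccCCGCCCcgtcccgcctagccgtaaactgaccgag
Itgb7: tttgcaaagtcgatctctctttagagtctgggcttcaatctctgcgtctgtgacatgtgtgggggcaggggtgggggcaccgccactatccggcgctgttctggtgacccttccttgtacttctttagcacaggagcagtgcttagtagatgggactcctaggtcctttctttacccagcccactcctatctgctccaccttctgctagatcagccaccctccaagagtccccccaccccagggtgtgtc

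The 3 windows of genes that were higher were rich in GC, with 67.6% for Itga3, 68.0% for Itgb1 and 65.2% for Itgb5, and held 22, 21 and 18 CG dinucleotides. The window of Itgb7 had 56.0% GC and 5 CG dinucleotides. Medians over 32851 windows of this length were 52.4% GC and 6 CG. The GC box occurred 3 times before Itga3, once before Itgb1, 3 times before Itgb5 and not before Itgb7, and 32.7% of all windows held at least 1. The TEAD letters GGAATG, on either strand, occurred in the window of Itgb1 and in 12.6% of all windows. The AP-1 letters TGACTCA or TGAGTCA, the CArG box of SRF and the letters TATAAA, each read on both strands, were not in these 4 windows and were in 4.46%, 1.47% and 12.4% of all windows. RefSeq windows were found for 6 of the 10 genes, with a further start listed for Itga3 whose window lies wholly inside the gene (chr11:95069199-95069448, 50.8% GC). Itga7, the other called gene, had no RefSeq window. Itga5 and Itgav, which were not called, had windows with 55.6% and 64.4% GC. These held 11 and 18 CG dinucleotides, and the GC box occurred 2 times before Itga5 and not before Itgav.

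Of the 10 genes, 4 rose in Srrm2+/- cells (Itga3, Itga7, Itgb1 and Itgb5), 1 fell (Itgb7) and 5 did not pass the test (Itga5, Itga6, Itgav, Itgb3 and Itgb4). Calls were made at a Benjamini-Hochberg adjusted p below 0.05 in the edgeR fit to all 18905 genes. By that rule 25.3% of all tested genes were called, 13.6% higher and 11.7% lower. On the log2 scale the median change was 0.29 for the 10 genes and -0.00254 for all tested genes. CPM did not overlap between the groups for 7 of the 10 genes, and for 41.4% of all tested genes.

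**Figure D1:**
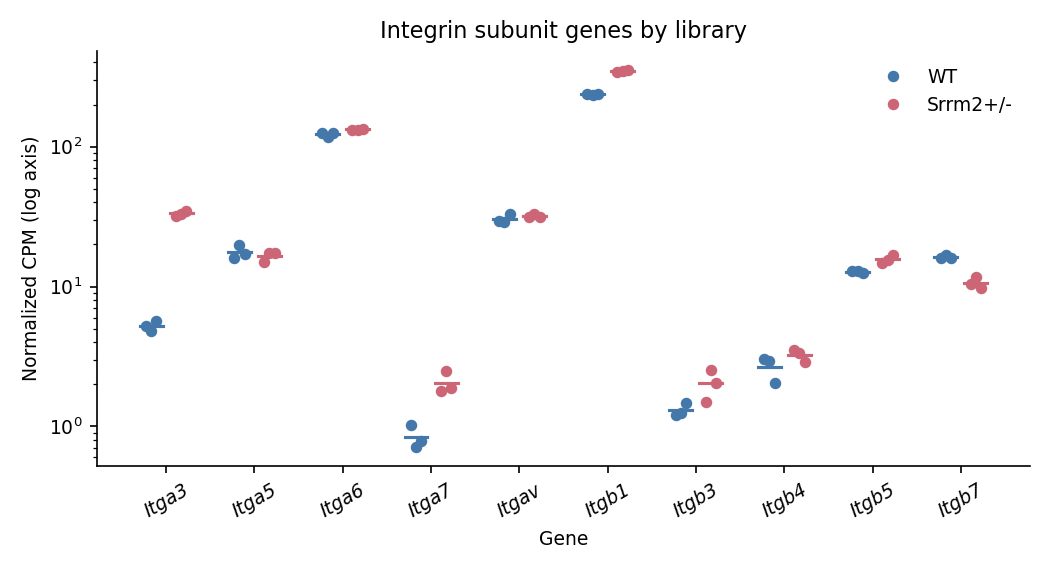
Normalised CPM of the 10 integrin subunit genes on a log axis, with 1 point per library and a line at the mean of each group (3 WT and 3 Srrm2+/- libraries). Itga3 shows the widest gap, from 4.81 to 5.69 CPM in WT to 31.9 to 34.8 CPM in Srrm2+/-, whereas Itgb7 is the sole gene with every Srrm2+/- library below every WT library.

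Itga3 (ENSMUSG00000001507, chromosome 11, 95044474 to 95076801, minus strand, GRCm38) encodes the alpha subunit of a laminin receptor of epithelia. WT replicates were at 5.26, 4.81 and 5.69 CPM, and Srrm2+/- replicates at 31.9, 33.3 and 34.8 CPM. The level was 6.34-fold higher in Srrm2+/- cells, a log2 fold change of 2.67 with SE 0.07 (adjusted p by edgeR 1.32e-07). Every Srrm2+/- library lay far above every WT library, and the spread within groups was small. The raw counts behind these values were 278 to 305 in WT and 2148 to 2296 in Srrm2+/-.

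Itga7 (chromosome 10, 128933818 to 128958282, plus strand), a laminin receptor subunit best known from muscle, was low in both groups. WT replicates were at 1.03, 0.709 and 0.784 CPM, and Srrm2+/- replicates at 1.78, 2.48 and 1.90 CPM. With SE 0.21, the log2 fold change was 1.29 (adjusted p by edgeR 0.00251), with raw counts of 41 to 57 in WT against 117 to 171 in Srrm2+/-. The groups did not overlap. The end of Itga7 shares exonic bases with Mettl7b on the opposite strand, whose counts were 0, 0 and 1 in WT against 3, 12 and 11 in Srrm2+/-. The 2 genes overlap only from 128958274 to 128958282. The strand setting of the counting was not given in the sources used here, and the part of shared reads in the value of Itga7 was not tested.

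Itga6 (chromosome 2, 71745616 to 71858416, plus strand), the alpha subunit of laminin receptors with Itgb1 or Itgb4, had the highest level per kilobase among the alpha genes. WT replicates were at 125, 118 and 126 CPM, and Srrm2+/- replicates at 132, 132 and 135 CPM. Although the groups did not overlap, the difference was small and did not pass the test (log2 fold change 0.11, SE 0.04, 95% interval 0.0249 to 0.20, adjusted edgeR p 0.0635). Its call turned on the filter. With genes kept at 1 CPM or more in every library of a group, the log2 fold change was 0.12 and the adjusted p 0.0351.

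Itga5 (chromosome 15, 103344286 to 103366763, minus strand), the alpha subunit of the classical fibronectin receptor, was at 15.9, 19.96 and 16.97 CPM in WT and 14.97, 17.4 and 17.5 CPM in Srrm2+/-. The groups overlapped. The log2 fold change was -0.0855 (SE 0.10, 95% interval -0.30 to 0.13, adjusted edgeR p 0.577), and it turned to 0.0175 without WT replicate 2. Itgav (chromosome 2, 83724397 to 83806916, plus strand), the subunit that RGD receptors share, was at 29.2, 28.9 and 32.9 CPM in WT and 31.6, 33.0 and 31.2 CPM in Srrm2+/-. Some of its exonic bases lie opposite those of Gm13684, which had 25 to 41 counts per library. Here too the groups overlapped (log2 fold change 0.0765, SE 0.06, 95% interval -0.0600 to 0.21, adjusted edgeR p 0.408).

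Itgb1 (ENSMUSG00000025809, chromosome 8, 128685654 to 128733200, plus strand), the shared beta subunit of most matrix receptors, had the highest level per kilobase of the 10 genes. WT replicates were at 238, 233 and 238 CPM, and Srrm2+/- replicates at 340, 348 and 356 CPM. The level was 1.47-fold higher in Srrm2+/- cells, a log2 fold change of 0.56 with SE 0.04 (adjusted p by edgeR 1.39e-05). With 12727 to 13464 counts in WT and 21945 to 23990 in Srrm2+/-, it was also the most deeply counted of the 10, and the groups lay well apart.

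Itgb5 (chromosome 16, 33829665 to 33949338, plus strand), the beta subunit of a vitronectin receptor with Itgav, rose less. WT replicates were at 13.0, 12.8 and 12.6 CPM, and Srrm2+/- replicates at 14.9, 15.5 and 16.9 CPM. With SE 0.06, the log2 fold change was 0.30 (adjusted p by edgeR 0.00958). No Srrm2+/- library overlapped a WT library.

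Itgb7 (ENSMUSG00000001281, chromosome 15, 102215995 to 102231944, minus strand), the beta subunit of lymphocyte homing receptors, was the gene that fell. WT replicates were at 16.0, 16.8 and 15.9 CPM, and Srrm2+/- replicates at 10.4, 11.7 and 9.82 CPM. The level was 1.52-fold lower in Srrm2+/- cells, a log2 fold change of -0.61 with SE 0.08 (adjusted p by edgeR 0.000529). All 3 Srrm2+/- libraries lay below all 3 WT libraries.

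Itgb3 (chromosome 11, 104608000 to 104670476, plus strand), the beta subunit of vitronectin and fibrinogen receptors, and Itgb4 (chromosome 11, 115974709 to 116008412, plus strand), the hemidesmosome subunit, were low. Itgb3 was at 1.21, 1.25 and 1.47 CPM in WT and 1.49, 2.55 and 2.04 CPM in Srrm2+/-. The highest WT library lay just below the lowest Srrm2+/- library, and the log2 fold change of 0.63 (SE 0.22, 95% interval 0.13 to 1.13, adjusted edgeR p 0.0666) did not pass the test. It did pass without Srrm2+/- replicate 1 (0.81, adjusted edgeR p 0.0235) and with the filter at 1 CPM (0.64, adjusted edgeR p 0.0488). Itgb4 was at 3.03, 2.92 and 2.04 CPM in WT and 3.51, 3.35 and 2.87 CPM in Srrm2+/-. Its groups overlapped, and a log2 fold change of 0.28 (SE 0.18, 95% interval -0.12 to 0.68, adjusted edgeR p 0.288) was not called. Itgb4 shares exonic bases with B230344G16Rik on the opposite strand, which was not analysed here.

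To compare levels between genes, CPM was divided by the length of the longest coding transcript in kilobases. In WT cells the alpha genes followed the order Itga6 (28.5 ± 0.958 CPM per kb, SD, n = 3), Itgav (4.30 ± 0.313), Itga5 (4.02 ± 0.483), Itga3 (1.08 ± 0.0911) and Itga7 (0.209 ± 0.0413). Values of Itgav and Itga5 overlapped between WT libraries, and the other neighbours in this order did not. In Srrm2+/- cells Itga6 stayed highest at 30.9 ± 0.338 CPM per kb (SD, n = 3). Itga3 came next at 6.86 ± 0.304, above Itgav at 4.53 ± 0.130, Itga5 at 3.79 ± 0.322 and Itga7 at 0.510 ± 0.0935, and no neighbours overlapped.

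Among beta genes in WT cells, Itgb1 was at 61.9 ± 0.761 CPM per kb (SD, n = 3), Itgb7 at 6.05 ± 0.186, Itgb5 at 3.90 ± 0.0629, Itgb4 at 0.429 ± 0.0879 and Itgb3 at 0.226 ± 0.0250. In Srrm2+/- cells Itgb1 was at 91.2 ± 2.04 CPM per kb (SD, n = 3), and Itgb5 at 4.79 ± 0.311 stood above Itgb7 at 3.97 ± 0.360. Itgb4 and Itgb3 followed at 0.522 ± 0.0538 and 0.351 ± 0.0920. No neighbours in either order overlapped between libraries. Itgb5 and Itgb7 thus changed places between the groups.

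The share of each subunit in the summed level per kb of its class was compared next, to describe the make-up of the subunit pool. Itga3 made up 2.84, 2.66 and 3.00% of the alpha sum in WT and 14.4, 14.7 and 15.1% in Srrm2+/- libraries. Itga6 made up 76.2, 73.7 and 74.6% in WT and 67.3, 65.5 and 66.1% in Srrm2+/-, although its own level was not called. The ratio of Itga6 to Itga3 went from 26.5 ± 1.47 (SD, n = 3) to 4.51 ± 0.163 (SD, n = 3). Among beta genes, the share of Itgb1 went from 85.4 ± 0.436% to 90.4 ± 0.334% and that of Itgb7 from 8.34 ± 0.318% to 3.94 ± 0.377% (SD, n = 3 each). Of the 10 shares, 8 did not overlap between the groups, Itgb3 and Itgb4 being the exceptions. These 8 include the shares of Itga5 and Itgav, whose own CPM overlapped between the groups. The share of Itgb5 went from 5.38 ± 0.0872% to 4.75 ± 0.211% (SD, n = 3 each), although its level was called higher. No such count exists for all tested genes, since shares were computed for these genes only. Shares of a class sum to a fixed total, so they are not independent of each other. The two-sided exact permutation p of each of the 8 was 0.1 (0.125 adjusted over the 10 shares), where 0.1 is the smallest that 3 against 3 libraries can give.

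**Figure D2:**
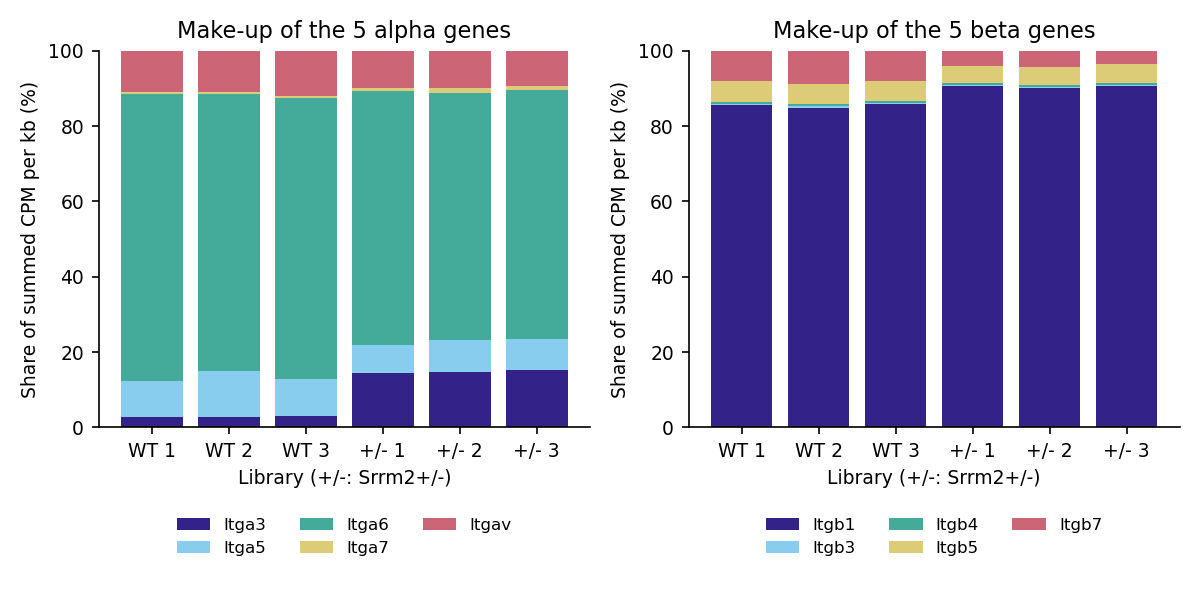
Share of each subunit in the summed CPM per kb of the 5 alpha genes (left) and the 5 beta genes (right), with 1 bar per library. Itga3 widens from about 2.83% of the alpha sum in WT to 14.7% in Srrm2+/-, and Itgb7 narrows from 8.34% to 3.94% of the beta sum.

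The summed level of the 5 alpha genes went from 38.2 ± 0.888 CPM per kb in WT to 46.5 ± 0.867 with Srrm2+/- (SD, n = 3 each). That of the 5 beta genes was 72.5 ± 0.575 and 101 ± 2.26 CPM per kb (SD, n = 3 each). The beta sum was 1.90 ± 0.0363 times the alpha sum in WT, against 2.17 ± 0.00835 times with Srrm2+/- (SD, n = 3 each, exact permutation p 0.1, the smallest possible). The 10 genes held 94.99 ± 0.115% of the level per kb of all 27 subunit genes in WT, against 96.1 ± 0.0938% for Srrm2+/- (SD, n = 3 each). These shares depend on the length used. With the median transcript length, which is set by short transcripts in Itgav and Itgb7, Itgav became the largest alpha share (55.7% in WT) and Itgb7 stayed above Itgb5. By that length the share of Itga3 went from 1.42% in WT to 7.94% in Srrm2+/-, a difference of 6.52 points against 11.9 by the longest transcript. The difference was -1.89 points against -8.51 for Itga6, 12.3 against 5.06 for Itgb1 and -12.2 against -4.40 for Itgb7. With coding lengths, Itga3 held 2.99% in WT and 15.5% in Srrm2+/-, beside 15.2% for Itgav.

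The other 17 integrin subunit genes were examined with the same fit. Of 13 that were tested, 2 were called higher, 2 lower and 9 not called, and their median log2 fold change was 0.04. Over all 23 tested subunits, 6 were higher and 3 lower, beside 13.6% higher and 11.7% lower among all tested genes. Itga8, the alpha subunit of the nephronectin receptor, was at 0.901, 1.04 and 0.9895 CPM in WT and 5.56, 6.60 and 7.83 CPM in Srrm2+/- (log2 fold change 2.77, SE 0.16, adjusted edgeR p 7.13e-06). Itgb8, a partner of Itgav that binds latent TGF-beta, showed counts of 11, 8 and 3 in WT against 111, 61 and 81 in Srrm2+/- (log2 fold change 3.25, SE 0.40, adjusted edgeR p 0.000504). Both were low in WT, and for both the groups did not overlap.

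Itga4, an alpha partner of Itgb7 and Itgb1, was at 15.2, 12.6 and 11.9 CPM in WT and 9.90, 10.4 and 9.55 CPM in Srrm2+/- (log2 fold change -0.41, SE 0.10, adjusted edgeR p 0.0137). Its call was lost without Srrm2+/- replicate 3 (-0.38, adjusted edgeR p 0.0561). Itga9, its close relative, was at 14.9, 15.6 and 16.4 CPM in WT and 10.5, 9.90 and 11.5 CPM in Srrm2+/- (log2 fold change -0.55, SE 0.08, adjusted edgeR p 0.000833). The groups did not overlap for either gene. Itgae, the other alpha partner of Itgb7, had a log2 fold change of -0.15 with SE 0.13 (adjusted p by edgeR 0.484).

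The subunits that did not pass the test were Itga1 (0.13), Itga2 (-0.40), Itga2b (0.16), Itga10 (-0.11), Itgal (-0.26), Itgam (0.04), Itgb2 (0.24) and Itgb6 (0.68), with log2 fold changes in parentheses. All of these were under 5 CPM on average in WT. Itga11, Itgad, Itgax and Itgb2l did not pass the filter on low counts.

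**Figure D3:**
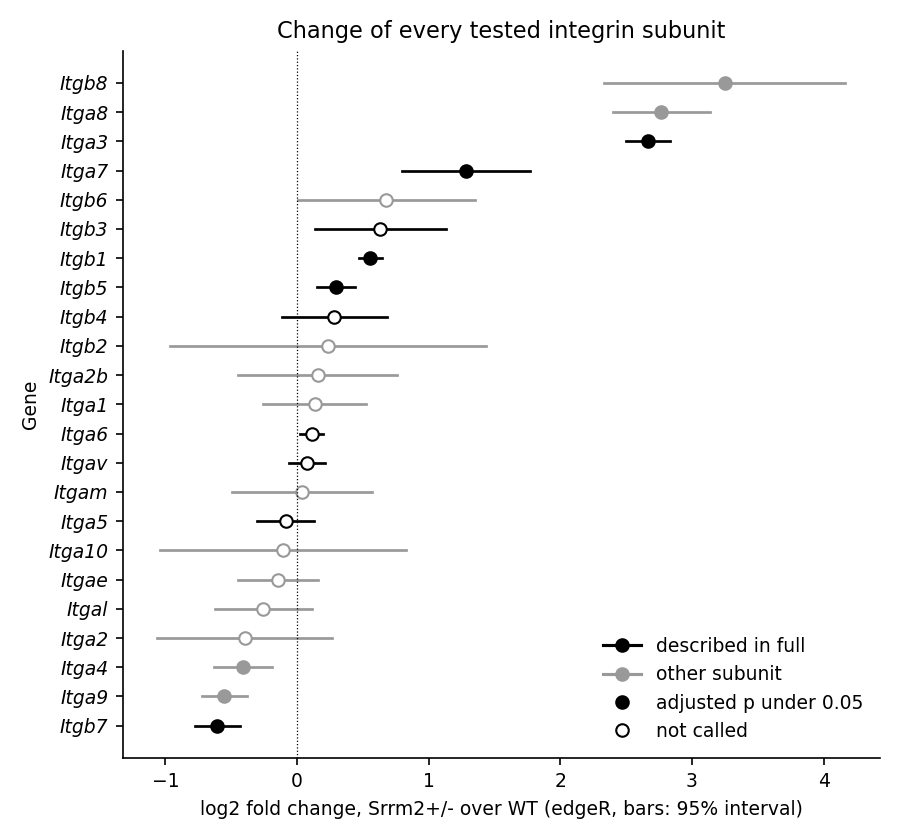
Log2 fold change (Srrm2+/- over WT) of the 23 tested integrin subunits with 95% intervals from the edgeR fit. Black marks the 10 genes described in full and grey the 13 others, and filled points are called. Itgb8, Itga8, Itga3 and Itga7 form the upper end, and Itgb7, Itga9 and Itga4 the lower end.

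Ligands of these receptors were read from 2 lists. For the counts of this and the following lists, the shares among all tested genes were 13.6% higher and 11.7% lower. Of 15 tested laminin and basement membrane genes, 8 were higher and 3 lower, with a median log2 fold change of 0.44. The collagen IV chains Col4a1 and Col4a2 were at 1.71 and 1.18 CPM in WT and 18.1 and 10.1 CPM in Srrm2+/- (log2 fold changes 3.40 and 3.09, SE 0.25 and 0.16). Lama4 rose by 1.64 (SE 0.23). Lama1 (-0.64, SE 0.08) and the nidogens Nid1 (-0.81, SE 0.08) and Nid2 (-0.30, SE 0.06), which link laminin to collagen IV, fell. Lamb1 rose (0.73, SE 0.06), and Lamc1, which most laminins contain, was at 0.12 (SE 0.08, adjusted edgeR p 0.332). Lamb3, a laminin beta chain (0.73, SE 0.12), and Npnt, the nephronectin bound by Itga8 (1.63, SE 0.21), were named after their values were seen, and both were called higher. Lama3, a laminin alpha chain, was at -0.26 (SE 0.12, adjusted edgeR p 0.156).

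Of 14 tested genes for RGD and other ligands, 7 were higher and 2 lower, with a median log2 fold change of 0.29. Ccn1, a matricellular ligand, rose from 1.93 ± 0.333 to 29.95 ± 4.97 CPM (SD, n = 3 each), or by 3.96 on the log2 scale (SE 0.16). Thbs1 (3.82, SE 0.12) and Tgfb2 (3.02, SE 0.15) rose also. The ligands Fn1 (fibronectin) and Spp1 (osteopontin) fell by 0.42 and 0.63 on the log2 scale (SE 0.07 and 0.04), Fn1 from 337 ± 28.8 to 252 ± 20.1 CPM and Spp1 from 558 ± 11.3 to 360 ± 12.3 CPM (SD, n = 3 each). Cdh1, which is E-cadherin and the ligand of the Itgae and Itgb7 dimer, rose by 0.31 (SE 0.05).

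Inside the cell, 6 of 15 tested activators and adaptors were higher and 3 lower (median log2 fold change 0.18). Tln1, the talin that activates integrins through the beta tail, rose by 0.62 (SE 0.07). The kindlin Fermt1 rose by 1.48 (SE 0.17) from a low level, and the kindlin Fermt2 by 0.18 (SE 0.04), a call that was lost without Srrm2+/- replicate 2 (0.18, adjusted edgeR p 0.0527) and without Srrm2+/- replicate 3 (0.17, adjusted edgeR p 0.0632). Of the complex that holds integrin-linked kinase, Ilk (0.90, SE 0.05) and Parva (1.94, SE 0.13) rose, Parvb fell (-0.47, SE 0.08) and Lims1 was at -0.0447 (SE 0.05, adjusted edgeR p 0.555). Kank2, which binds talin, fell by 0.60 on the log2 scale (SE 0.07). Rap1gap, which switches off the small GTPase Rap1, was called lower (-0.33, SE 0.08), a call lost without WT replicate 2 (-0.26, adjusted edgeR p 0.0681), Srrm2+/- replicate 1 (-0.30, adjusted edgeR p 0.0620) or Srrm2+/- replicate 3 (-0.30, adjusted edgeR p 0.0710). Rap1b was at 0.15 (SE 0.07, adjusted edgeR p 0.165), and passed with the replicate block (0.15, adjusted edgeR p 0.0390). The call of Kank1 (0.36) was lost without WT replicate 1 (adjusted edgeR p 0.0620) or Srrm2+/- replicate 2 (adjusted edgeR p 0.0577), and without WT replicate 2 Tln2 and Rap1a passed (0.88 and 0.32, adjusted edgeR p 0.0127 and 0.00901).

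Of 11 inhibitors and recycling factors, 4 were higher and 7 were not called (median 0.12). They were Rab25 (1.05, SE 0.14), Rab11fip1 (0.54, SE 0.06), Swap70 (0.35, SE 0.04) and Dok1 (0.72, SE 0.19), and the call of Dok1 was lost without WT replicate 1, WT replicate 3 or Srrm2+/- replicate 2 (adjusted edgeR p 0.0646, 0.0658 and 0.0731). Fabp3 and Arf6 were at -0.0392 and -0.0349 (adjusted edgeR p 0.608 and 0.619). Of 16 adhesion signalling genes, 8 were higher and 2 lower (median 0.28). The calls of Src and Pxn were each lost in 3 of 6 fits that left out 1 library. For Src these left out WT replicate 2, WT replicate 3 or Srrm2+/- replicate 1 (adjusted edgeR p 0.0562, 0.0593 and 0.0572). For Pxn they left out WT replicate 2, Srrm2+/- replicate 1 or Srrm2+/- replicate 3 (adjusted edgeR p 0.0649, 0.0573 and 0.0616). Git1 was not called (0.30, adjusted edgeR p 0.0510) but passed in 6 of 13 alternative fits, among them DESeq2 (adjusted p 0.0121) and those without WT replicate 3 (adjusted edgeR p 0.0477) or Srrm2+/- replicate 2 (adjusted edgeR p 0.0444). Arhgef7, at 0.13, passed with the filter at 1 CPM (adjusted edgeR p 0.0450). The scaffold Nedd9 (2.77, SE 0.30), caveolin Cav1 (2.30, SE 0.34) and the paxillin relative Tgfb1i1 (1.86, SE 0.23) rose from means under 0.5 CPM in WT. The kinase Yes1 fell by 0.65 on the log2 scale (SE 0.04), with 274 ± 12.3 CPM in WT against 174 ± 1.95 CPM in Srrm2+/- (SD, n = 3 each), and Dock1 fell also (-0.32, SE 0.07, adjusted edgeR p 0.00904). Crk was at 0.0258 (SE 0.05, adjusted edgeR p 0.784).

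Of 14 membrane partners, 5 were higher and 9 were not called (median 0.24). Plaur, the urokinase receptor, rose by 2.05 (SE 0.08), and the syndecans Sdc4 and Sdc1 by 0.52 (SE 0.07) and 0.39 (SE 0.06). The tetraspanin Cd151, a close partner of the Itga3 and Itga6 dimers, was called higher at 0.16 (SE 0.04, adjusted edgeR p 0.0291). That call was lost with the replicate block (0.16, adjusted edgeR p 0.0627) and in 5 of 6 fits that left out 1 library, all but that without Srrm2+/- replicate 3 (adjusted edgeR p 0.0548 to 0.0964). Cd9 (-0.26, SE 0.15, adjusted edgeR p 0.254) was called without WT replicate 1 (-0.45, adjusted edgeR p 0.00143), as was Cd82 (1.45, adjusted edgeR p 0.0367). Cd81 (-0.0686), Bsg (-0.0285) and Slc3a2 (0.000409) were not called.

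Of 5 tested hemidesmosome partners, 3 were higher and 2 were not called (median 0.27). Plec, the plectin that anchors the Itgb4 tail to keratin, rose by 0.27 (SE 0.05). Krt8 and Krt18, keratins of simple epithelia, rose by 3.85 and 3.79 (SE 0.08 each). Dst was at -0.11 (SE 0.05, adjusted edgeR p 0.155), and was called without WT replicate 1 (-0.15, adjusted edgeR p 0.0349). Krt5 and Krt14, the keratins of epidermal hemidesmosomes, did not pass the filter on low counts, with means of 0 and 0.157 CPM in WT and 0.00963 and 0.113 CPM in Srrm2+/-.

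**Figure D4:**
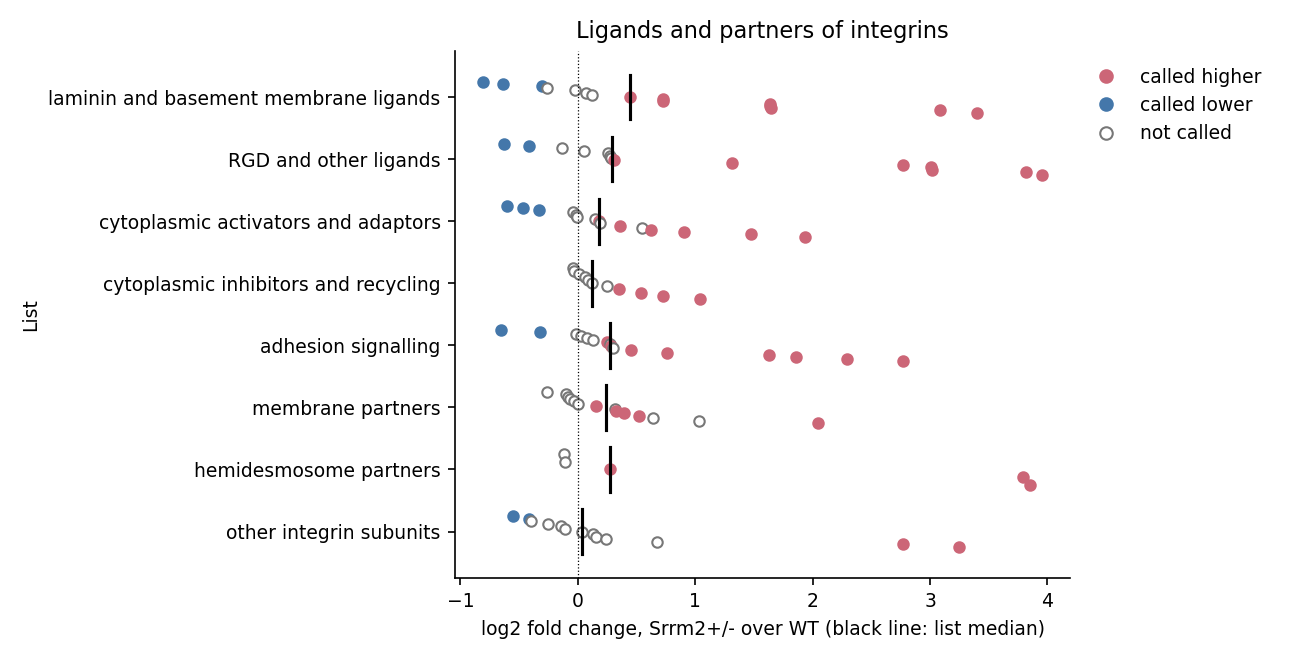
Log2 fold change (Srrm2+/- over WT) of every tested gene in the lists of ligands, partners and other subunits, with 1 point per gene, coloured by its call, and a black line at the median of each list. Medians lie between 0.04 for the other subunits and 0.44 for laminin and basement membrane genes, and points lie on both sides of 0 in every list.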

How the data were processed

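Total RNA of 3 WT and 3 Srrm2+/- cultures was sequenced from stranded libraries. The authors quantified reads by pseudo-alignment (kallisto 0.46.1, GENCODE release M24, mm10) and deposited estimated counts per gene that were not normalised and in which reads shared by transcripts are divided. Replicates were thawed from separate frozen batches, per the study's methods. Here the estimated counts were rounded, and symbols, positions and lengths came from GENCODE release M21 on GRCm38 (42156 of 42450 identifiers matched). Genes were kept by filterByExpr (minimum count 10, minimum total 15) and fitted with edgeR 4.0.16, with TMM scaling, a two-sided quasi-likelihood F test, genotype as the only term and Benjamini-Hochberg adjustment over 18905 genes. SE is the standard error of the log2 fold change.

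DESeq2 1.42.0, limma voom (limma 3.58.1), other scalings and filters, a replicate block and leaving out each library were alternatives. The script was tested on simulated counts. The 10 genes and all lists were chosen with earlier results of these data known. From each list the text names the 3 largest called rises and falls and any gene averaging 6 or more in log2 CPM. It names all subunits, and also genes whose call changed in an alternative fit. Lama3, Lamb3, Npnt, Krt5 and Krt14 are named outside this rule. Every pair of libraries differed by more than sampling noise (the lowest chi-square was 14.7 per degree of freedom, for genes of 20 counts and above). P-values and intervals cover only the spread between these libraries, and those on few counts are the widest.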

Additional observations from a re-analysis of the deposited data

How the results depend on the processing

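Itga3, Itga7, Itgb1, Itgb5 and Itgb7 kept their direction and their call under all 13 alternative fits. Of the 10 genes, 5 were called with RLE or upper quartile scaling, DESeq2, limma voom, a filter of 1 count and the replicate block, 5 to 6 with 1 library left out, 7 with the filter at 1 CPM and 2 when the change had also to reach 1 in size on the log2 scale. Among all tested genes 4781 were called, against 4166 with the replicate block, 3515 to 4122 with 1 library left out, 1153 with that limit on size and 2779 at an adjusted p under 0.01. Itga5 ranged from -0.15 to 0.0175 with 1 library left out, reversing without WT replicate 2, and the cause was not tested. No scaling moved the median of all genes by over 0.1. Shares that did not overlap numbered 8, with 7 under median transcript lengths, 8 under coding lengths (chosen after seeing the data) and 8 to 9 with 1 library left out. Counts of 41 to 176 per library limit Itga7 and Itgb3. Libraries with the same replicate number did not deviate together over all tested genes (r of their deviations from the group means -0.0285, -0.0337 and -0.0300). These values gave no sign of pairing by number. They include counting noise and could hide a small shared effect, so the replicate block is given only as an alternative.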

Other observations

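The pattern of Itga3, the gene of the 10 with the largest change, was most like those of Mest, Anxa2, Ppp2r1a, Ssbp3 and Phldb2 over the 6 libraries (Pearson r of log2 CPM 0.999 to 1.000, from 18905 genes tested). These values are a description only, since with 2 groups any gene with a small spread and a shift in the same direction gives a high r, and 268 genes had an r above 0.99. The sizes of change differed widely among them. Mest, an imprinted gene, went from 2.76 to 47.6 CPM, Anxa2, which encodes annexin A2, from 4.58 to 40.8 CPM and Phldb2, which encodes a protein that anchors microtubules near adhesions, from 5.16 to 32.0 CPM, while Ppp2r1a, a phosphatase scaffold, went from 116 to 149 CPM and Ssbp3 from 20.5 to 37.5 CPM.

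The nearest tested protein-coding neighbours of the 5 called genes were also read. Those of Itga3 on chromosome 11, Pdk2 at 3.12 kb and Tac4 at 185 kb, had log2 fold changes of 0.12 (SE 0.26) and -0.16 (SE 0.33), and neither was called. Beside Itgb7 on chromosome 15, Rarg at 2.99 kb was higher in Srrm2+/- (0.47, SE 0.04, edgeR adjusted p 4.65e-05), opposite to Itgb7, and Zfp740 at 0.389 kb was at -0.0649 (SE 0.05, edgeR adjusted p 0.370). Beside Itgb1 on chromosome 8, Nrp1 at 182 kb (2.25, SE 0.36) and Ccdc7b at 334 kb (0.63, SE 0.14) were both called higher. Beside Itgb5 on chromosome 16, Heg1 at 58.1 kb was called higher (0.81, SE 0.18) and Umps at 5.44 kb was not (0.0824, SE 0.04). Neither neighbour of Itga7 on chromosome 10, Bloc1s1 at 9.78 kb (-0.11) and Vmn2r85 at 1460 kb (0.11), was called. Vmn2r85 is far from Itga7 and averaged only 0.183 CPM in WT and 0.199 CPM in Srrm2+/-.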
